A study of Rattus norvegicus with 12 samples.

Results

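Of the 32883 rat genes counted in whole RCS retina, 61 had a mean level at p60 that was at least 4 times the p21 level, with all 6 p60 libraries above all 6 p21 libraries. The level was the count scaled to the library's total count (CPM). Members needed a mean of 2 CPM or more at p60 and a ratio of (mean p60 + 0.5) to (mean p21 + 0.5) of 4 or more, and genes on chromosomes MT, X, Y and 20 and 7 listed identifiers were left out. These exclusions removed 8 genes that otherwise met the rule, 6 by chromosome and 2 by identifier. The 61 members were 0.473% of the 12888 genes with a mean of 2 CPM or more at p60 outside the exclusions. Because the p21 and p60 levels chose the members, their difference between the ages is given as a description without a test. For background, 62% of the 16069 genes tested differed between the ages by edgeR at an adjusted p-value under 0.05, and 31.7% were higher at p60, from which nothing is read about the members.

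The study sequenced poly(A) RNA from whole retinas of RCS rats at p21 and p60, with 3 immunocompetent and 3 athymic libraries at each age. The immunocompetent rats, labelled WT male, had the genotype RCS-p+, and the athymic rats, labelled athymic female, had the genotype RCS-p+/Foxn1mu, so that every group carried RCS-p+ and WT did not denote a rat without retinal disease. Line and labelled sex coincided. Nothing in the labels says that each library was from a separate animal, so p-values measured the spread between these libraries, which may be technical. The series compared p21 with p60 in the degenerating RCS retina and, within each age, the immunodeficient with the immunocompetent variant. There was no non-degenerating retina among the samples, so normal maturation and degeneration between p21 and p60 cannot be told apart.

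The RCS rat lacks working Mertk, the receptor with which the retinal pigment epithelium recognises and engulfs the shed tips of photoreceptor outer segments. Outer segment debris builds up, photoreceptors die, and Müller glia and microglia respond in the weeks that follow. A whole retina holds all of these cells, so in bulk RNA a gene can rise because each cell makes more of its RNA or because its cell type makes up more of the tissue, which cannot be told apart here. Foxn1 is needed for the thymus, where T cells mature.

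The files give genes by Ensembl identifier, and the RefSeq gene table used here held none of the 32883. The members are therefore identified by their position in the rat build Rnor_6.0, where a start such as 89.008 Mb refers to the full position given at first mention. No gene symbol, promoter or protein could be assigned, and the tissue label was not checked against retinal markers. The counting of antisense and near-identical genes is not stated in the sources used here, so members that share sequence with another gene are uncertain.

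Total counts ranged from 13852516 to 16725355 per library. Y chromosome counts summed to 229 to 323 CPM where the label was male. Where it was female, the sum was 269 to 328 CPM in libraries 4, 5 and 22 but 8.79 to 23.2 CPM in libraries 6, 23 and 24, so the labelled sex did not match in 3 libraries. Since line and labelled sex coincided, the line labels of libraries 4, 5 and 22 are uncertain too, and were not checked. A set of 144 genes stood high in library 4 at p21 and in libraries 19 and 24 at p60, at 19102, 11820 and 6003 CPM in sum, whereas the other 9 libraries ranged from 835 to 3573 CPM. This set was picked from these libraries for that pattern. It took 144 of the 14762 genes with a mean of 1 CPM or more over all libraries, and 1 of the 61 members.

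Together the 61 members took 806 ± 39.6 CPM at p21 and 4917 ± 736 CPM at p60 (SD, n = 6 each), or 0.0806% and 0.492% of all counts. By group, the sum at p21 was 837 ± 14.7 CPM in immunocompetent and 775 ± 27.9 CPM in athymic libraries, and at p60 it was 5122 ± 903 and 4713 ± 644 CPM (SD, n = 3 each). The 5 most abundant members held 58.4% of the members' counts at p60. The median ratio of p60 to p21 was 5.33, where 6 members had a ratio of 10 or more, 14 of 8 or more and 36 of 5 or more. The mean p60 level was 100 CPM or more for 8 members, between 10 and 100 CPM for 32 and under 10 CPM for 21. At p21, 13 members had a mean under 1 CPM and 10 had 10 CPM or more, so the list held both genes that were close to undetected at p21 and genes with a substantial p21 level.

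The distance between the ages, which the rule largely fixes, is given as a description. The lowest p60 library was a median of 3.49 times the highest p21 library and at least 2 times in 54 of the 61 members, with a range of 1.43 to 11.5. The coefficient of variation over 6 libraries had a median of 27.2% at p21 and 19.7% at p60. The mirrored rule, for genes lower at p60, was met by 91 genes. Among the 14762 genes with a mean of 1 CPM or more over all libraries, termed expressed genes, the median log2 ratio was 0.19, and 6.34% had a ratio of 2 or more. With TMM scaling, which sets the bulk of genes level, the median of expressed genes was 0.015, all 61 members kept a ratio of 3 or more, and 47 kept a ratio of 4 or more.

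**Figure D1:**
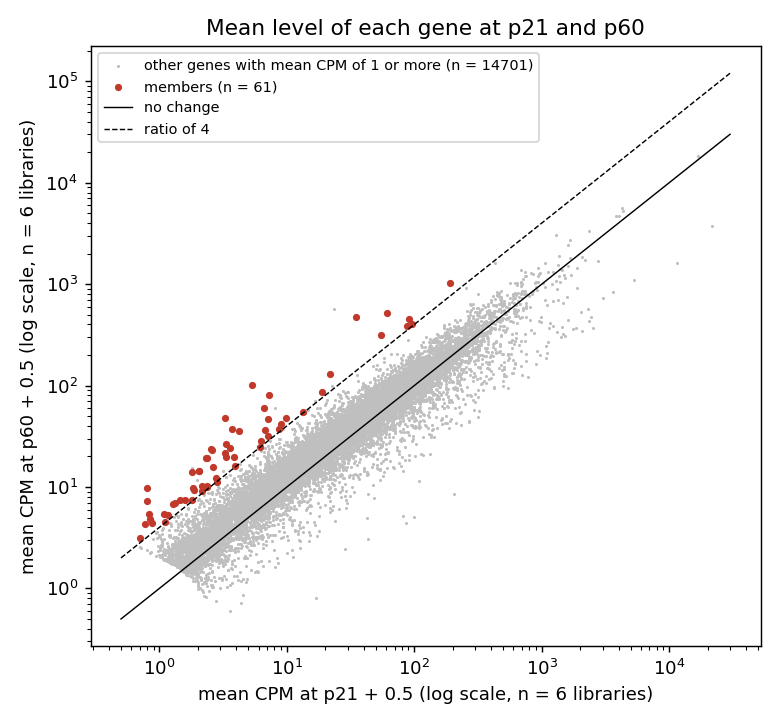
Mean CPM + 0.5 at p21 (x axis) and p60 (y axis) for each expressed gene, both on a log scale and over 6 libraries, with the 61 members in red and other genes in grey. The members lie on or above the dashed line for a ratio of 4, from under 1 CPM to 191 CPM at p21, and grey points above that line are genes the rule left out.

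**Figure D2:**
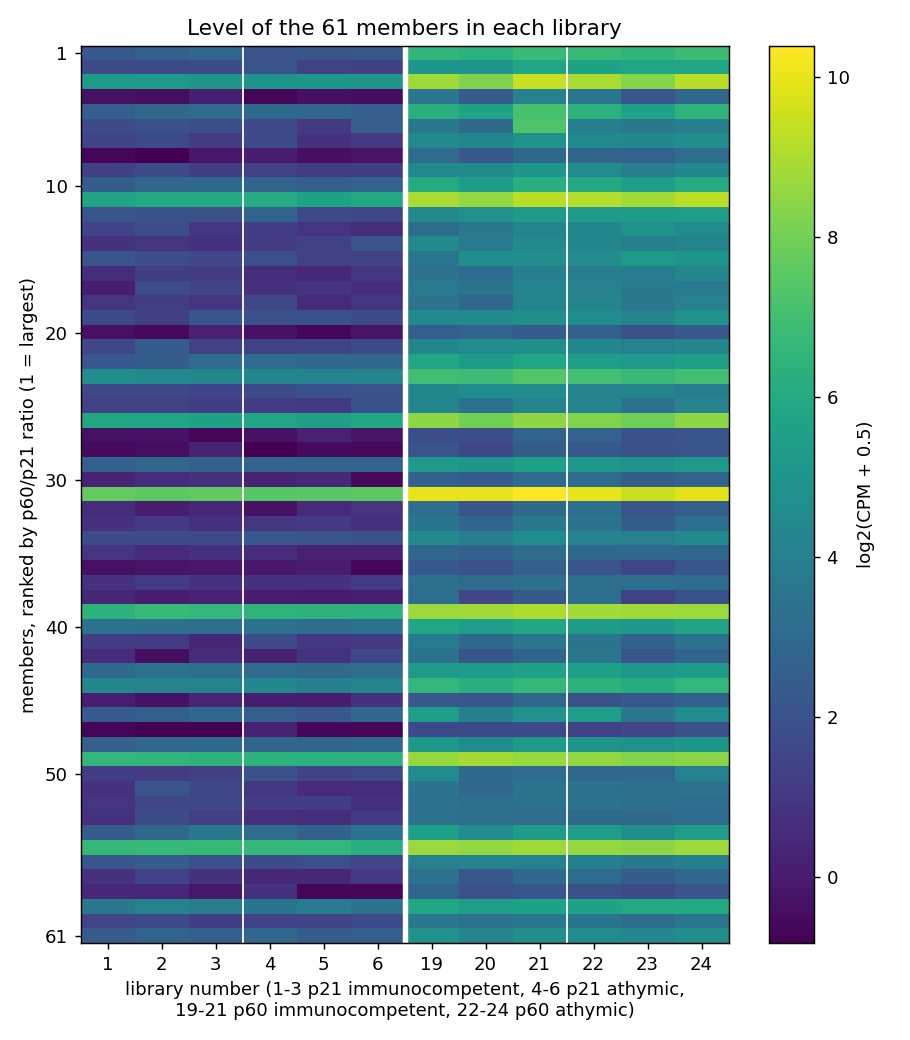
Level of each member (rows, ranked by ratio) in each of the 12 libraries (columns, grouped by age and line) as log2(CPM + 0.5). Every member is brighter in the 6 p60 libraries on the right than in the 6 p21 libraries on the left.

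The largest ratio, 18.9, belonged to ENSRNOG00000050869 at chr11:89008008-89009146 on the plus strand, a gene with an exonic length of 1139 bases. Its level was 4.32, 5.77 and 7.0 CPM in immunocompetent and 3.62, 3.95 and 4.25 CPM in athymic libraries at p21. At p60 it was 92.9, 80.7 and 110 CPM in immunocompetent and 110, 90.2 and 116 CPM in athymic libraries. All 6 retinal libraries at p60 were thus close to each other and far above p21, from 4.82 ± 1.30 to 99.9 ± 13.9 CPM (SD, n = 6). At p21, the immunocompetent mean was 5.70 CPM and the athymic mean 3.94 CPM, an order that turned at p60 with means of 94.7 and 105 CPM. Neither difference between the lines passed the test given further on.

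ENSRNOG00000043098 at chr19:11307967-11308740 on the minus strand had the next ratio, 14.6. Its p21 level was 2.95, 2.73 and 2.96 CPM in immunocompetent and 3.75, 2.12 and 1.97 CPM in athymic libraries. At p60, the immunocompetent libraries had 33.5, 31.9 and 55.0 CPM and the athymic libraries 51.4, 56.4 and 53.7 CPM. Libraries 19 and 20 were lower than the other 4 p60 libraries, which had 51.4 to 56.4 CPM.

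The third ratio, 13.6, was of an abundant gene at chr13:51022681-51030802, with 31.5 to 38.8 CPM at p21 (median 33.7). At p60 it had 448, 293 and 692 CPM in immunocompetent and 494, 331 and 606 CPM in athymic libraries. Libraries 20 and 23 were the lowest and library 21 the highest, an order shared by many other members. A gene that spans chr6:127941526-128080889 had a ratio of 12.3 and was barely counted at p21, with 2 to 8 counts per library, against 61 to 255 counts at p60. Its p60 level was 11.4, 4.68 and 16.9 CPM in immunocompetent and 11.5, 3.95 and 7.20 CPM in athymic libraries. Libraries 20 and 23 were again the lowest pair, here with library 23 below library 20, and library 21 the highest. At chr3:72161189-72171078, the level was 5.33 to 7.94 CPM at p21 (median 7.21) and 75.2, 49.5, 137, 80.9, 51.0 and 87.4 CPM in libraries 19 to 24, a ratio of 11.1.

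One large ratio rested on a single library. The gene at chr3:11414186-11417546 had 1.62 to 5.5 CPM at p21 and a ratio of 10.1. At p60, its level was 159 CPM in library 21 and 12.3, 7.87, 15.1, 11.6 and 15.5 CPM in libraries 19, 20, 22, 23 and 24. All 6 p60 libraries were above p21, but the coefficient of variation at p60 was 162%. Without library 21 the ratio was 3.50, under the limit of the rule, and by line it was 16.5 in the immunocompetent and 3.87 in the athymic libraries.

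A comparison of levels between genes needs the exonic length, so CPM was divided by length in kilobases. By this measure, the highest p60 level was 847 CPM per kilobase, at chr1:189944895-189960073, up from 159 at p21. In CPM, this gene had 172 to 210 at p21 (median 191) and 1042, 1013, 1341, 1013, 728 and 983 in libraries 19 to 24, with a ratio of 5.33. It was the most abundant member at both ages on either scale.

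Next per kilobase at p60 were genes at chr9:27368272-27452902 with 276, at chr13 51.023 Mb with 261, at chr3:114087287-114093309 with 173, at chr2:104744461-104799853 with 138 and at chr7:129949967-129970550 with 132 CPM per kilobase. In CPM, the gene at 27.368 Mb went from 95.5 ± 11.1 at p21 to 402 ± 33.4 at p60 (SD, n = 6), and the gene at 104.744 Mb from 60.0 ± 7.41 to 523 ± 86.3. The gene at 114.087 Mb went from 54.4 ± 4.96 to 316 ± 56.4 CPM. At chr18:6765945-6782996, a gene with a long exonic length of 5419 bases went from 90.8 ± 8.45 to 448 ± 36.5 CPM. These genes were well counted at both ages, so low counts at p21 do not enter their ratios.

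Low p21 counts do enter the ratios of others. The gene at chr4:68808359-68819928 had 0.0635 to 0.669 CPM at p21 (median 0.130) and 2.02 to 3.36 CPM at p60 (median 2.66), a ratio of 4.49 that depends on the 0.5 CPM added to both means. At chr5:168009393-168035810, the level was 0.0635 to 0.536 CPM at p21 and 4.14 to 8.68 CPM at p60, a ratio of 9.13. With 1 CPM added in place of 0.5, 44 of the 61 genes kept a ratio of 4, and the gene at 68.808 Mb had 3.04.

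The limit of 4 cut through a continuous range. Just inside were genes at chr4:31229913-31299132 with a ratio of 4.005, from 5.70 to 24.3 CPM, at chr1:189870622-189889484 with 4.02, from 2.31 to 10.8 CPM, and at chr6:109300433-109303299 with 4.06, from 12.9 to 54.0 CPM. Just outside were genes at chr4:117490035-117490721 with 3.97, from 14.0 to 57.2 CPM, at chr4:162934195-162943981 with 3.95, from 8.87 to 36.5 CPM, and at chr12:25119355-25125749 with 3.95, from 0.847 to 4.82 CPM. All 3 genes outside also had every p60 library above every p21 library.

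Apart from the chromosomes it left out, the rule used no positions. The members were spread over 16 chromosomes, from 1 to 7 on each. As a share of the expressed genes of a chromosome, members were 1.14% on chromosomes 16 and 19 (5 each), 1.10% on chromosome 11 (4) and 0.873% on chromosome 4 (7), against 0.327% on chromosome 1 (6) and 0.171% on chromosome 9 (1). Over all chromosomes the share was 0.473%, on another base, the 12888 genes with a mean of 2 CPM or more at p60. Each chromosome's share rests on few members, some of them in the neighbouring pairs described below, and was not tested. Their median exonic length was 2066 bases, against 2362 for expressed genes, and their median genomic span 14333 bases, against 20567.5. A single exon was annotated for 5 members, 8.20%, against 6.10% of expressed genes. Exons of 1 member overlapped those of another gene: at chr2:124081072-124134681, 253 bases, or 19.9% of the exonic length, were shared with a gene on the opposite strand that went from 7.18 to 24.4 CPM, and reads on these bases cannot be assigned without the strand setting.

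Members lay close to each other. Of the 61, 20 (32.8%) had another member within 200000 bases, in 10 pairs. Of the 13755 expressed genes that were not members and lay outside the excluded chromosomes, 2.44% had a member within that distance. The 7 listed identifiers were not removed from this background. In 7 of the 10 pairs, no annotated gene lay between. By orientation, 5 pairs were head to head, 3 on the same strand and 2 tail to tail. Of the 59 members with an expressed non-member within the same distance, some shared a nearest neighbour, which left 55 distinct neighbours. Their median log2 ratio was 0.43, against 0.19 over all expressed genes. Of the 55, 11 (20%) had a ratio of 2 or more, against 6.34% of expressed genes, and 9 were lower at p60. The 11 include the gene on the opposite strand that shares exonic bases with the chromosome 2 member.

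The closest pair was head to head at chr16:6064288-6077978 and chr16:6078122-6109382, with 144 bases between. The first went from 1.34 ± 0.200 to 9.19 ± 2.89 CPM and the other from 1.67 ± 0.606 to 9.80 ± 2.91 CPM (SD, n = 6), so both had similar levels at both ages. A similar pair, 446 bases apart, lay at chr4:78450724-78458179 and chr4:78458625-78462423. These went from 18.3 ± 2.09 to 86.9 ± 12.5 CPM and from 9.43 ± 0.648 to 47.2 ± 8.52 CPM, ratios of 4.64 and 4.80. In both of these pairs the genes start side by side and are read in opposite directions, whereas the other 3 head to head pairs were 20455, 120467 and 166847 bases apart.

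On chromosome 19, the gene with the next largest ratio, at 11.308 Mb, was 5029 bases from a short gene on the same strand at chr19:11302125-11302938, which went from 3.74 ± 1.39 to 34.9 ± 7.90 CPM. On chromosome 6, short genes at chr6:114476142-114476723 and chr6:114478293-114488880 were 1570 bases apart, also on the same strand. The first had 11.6, 25.1 and 25.8 CPM in immunocompetent and 23.1, 38.2 and 30.7 CPM in athymic libraries at p60, after 2.03 to 3.96 CPM at p21. The other had 8.33, 11.7 and 19.04 CPM in immunocompetent and 19.3, 29.9 and 24.3 CPM in athymic libraries at p60, after 1.08 to 3.05 CPM at p21. Both chromosome 6 genes and both chromosome 19 genes were lowest in library 19 or 20 and highest in library 23 or 24 at p60. Library 23 was the lowest or next to lowest for most members but not for these 4. The same held for some others, such as the chromosome 2 gene at 124.081 Mb and the chromosome 6 gene at 109.3 Mb.

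On chromosome 11, genes at chr11:37891156-37914983 and chr11:38035450-38059950 lay 120467 bases apart with 2 genes between, neither of them expressed. The gene at 38.035 Mb had 42.0, 15.9 and 29.8 CPM in immunocompetent and 43.2, 11.6 and 24.1 CPM in athymic libraries at p60. Libraries 19 and 22 were the highest and libraries 20 and 23 the lowest. Its neighbour at 37.891 Mb had 8.68, 3.87, 7.80, 9.29, 3.82 and 5.51 CPM in the same order. Across the 6 p60 libraries, Pearson's r of their log2 levels was 0.972. Over the 10 pairs, r had a median of 0.914 and a range of 0.376 to 0.972, and over all 1830 pairs of members the median was 0.527. These correlations are descriptions over 6 libraries of 2 lines, and all members share each library's depth and dissection.

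The members most like the gene at 38.035 Mb over the p60 libraries, with r of 0.9 or more, were genes at chr12:41200718-41211909 with r of 0.977, the neighbour at 37.891 Mb, chr4:153805993-153834430 with 0.953, the chromosome 16 gene at 6.078 Mb with 0.944, and chr16:19938784-19942353 with 0.915. The gene at 41.201 Mb had 8.47, 2.44, 4.63, 8.72, 2.01 and 3.50 CPM in libraries 19 to 24, in the same order of libraries at a lower level. The 4 besides the neighbour lie on chromosomes 4, 12 and 16, so this order of the libraries was not limited to adjacent genes.

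**Figure D3:**
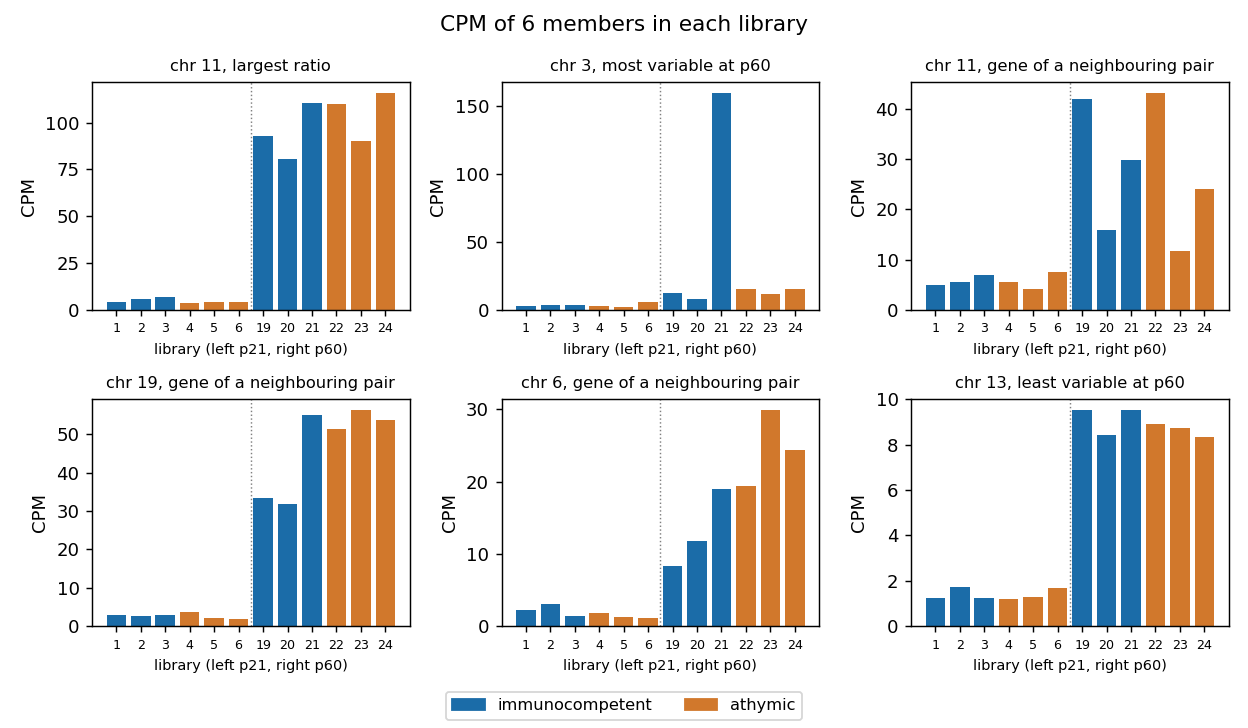
CPM of 6 members in each of the 12 libraries, p21 on the left and p60 on the right of each panel, coloured by line, with 1 bar per library. The chromosome 11 gene with the largest ratio is even across p60, whereas the chromosome 3 gene stands at 159 CPM in library 21 alone and the chromosome 11 gene at 38.035 Mb is low in libraries 20 and 23.

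Levels of many members moved together between the p60 libraries, irrespective of line. Library 20 (immunocompetent) and library 23 (athymic) were the lowest pair of the 6 in 37 members (60.7%), against 6.79% of expressed genes. Library 21 was the highest in 29 members (47.5%, against 16.1% of expressed genes) and the lowest in none. Libraries 20, 21 and 23 were singled out after the members' p60 levels were seen. The rule also used these levels, and expressed genes are not matched to the members for a rise with age. The shares are therefore a description and no test. The median deviation of members from their own p60 mean of log2(CPM + 0.5) was -0.32 in library 20, -0.26 in library 23, 0.24 in library 21 and between 0.040 and 0.067 in the other 3 libraries. The median over expressed genes was between -0.0091 and 0.0055 in all 6. Mitochondrial genes took 4.81% of counts in library 20, the lowest at p60, 5.27% in library 21, the highest, and 5.14% in library 23, the next highest. TMM factors at p60 were between 1.05 and 1.08. The part of the mitochondrial share in this order was not tested.

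**Figure D4:**
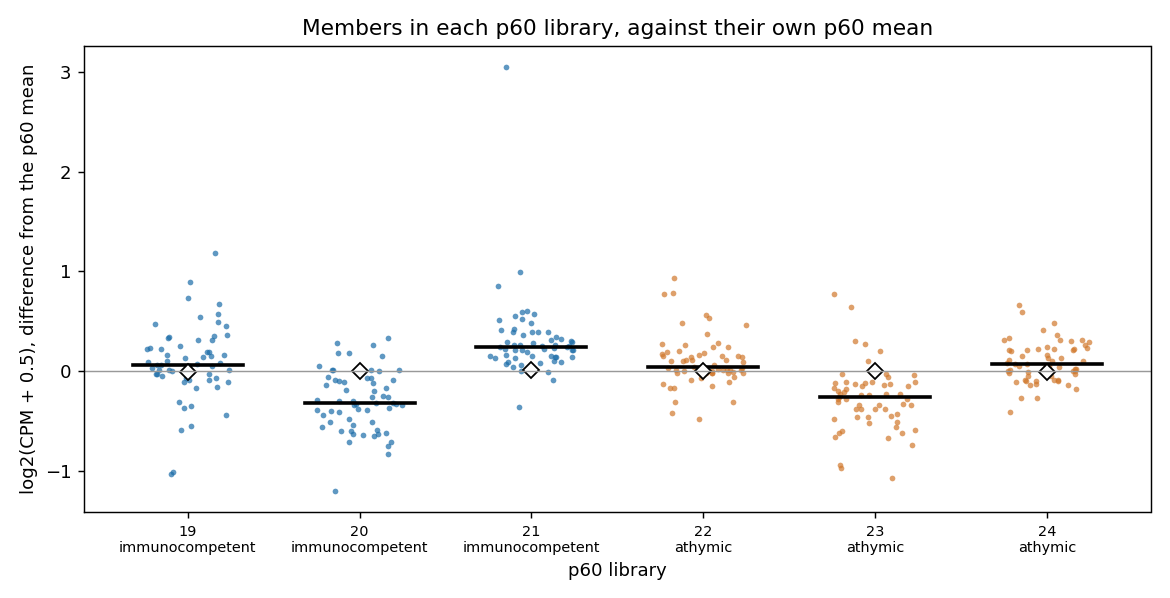
Difference of log2(CPM + 0.5) from the gene's own p60 mean (y axis) for each of the 61 members in each p60 library (x axis), with 1 point per member, a black bar at the members' median and a white diamond at the median of expressed genes. Members lie low in libraries 20 and 23, at medians of -0.32 and -0.26, and high in library 21, at 0.24, whereas the diamonds stay near 0.

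The 3 steadiest members at p60, among those with a mean of 5 CPM or more, did not have libraries 20 and 23 as their lowest pair, whereas the next, the chromosome 9 gene at 27.368 Mb with a coefficient of variation of 8.31%, did. At chr13:89327794-89433815, the level was 9.53, 8.42, 9.52, 8.91, 8.73 and 8.34 CPM in libraries 19 to 24, a coefficient of variation of 5.85%, after 1.21 to 1.71 CPM at p21. The gene at chr1:215628785-215662504 varied by 7.11% at p60 and the chromosome 18 gene at 6.766 Mb by 8.15%. The most variable were the chromosome 3 gene at 11.414 Mb, the gene at chr10:81936444-81942188 with 60.8% and the chromosome 6 gene at 127.942 Mb with 53.0%. The gene at 81.936 Mb was the member of the 144-gene set: its p60 level was 24.2 and 16.7 CPM in libraries 19 and 24 and 6.73 to 8.0 CPM in the other 4. Its ratio was 4.37 over all libraries and 3.06 without libraries 4, 19 and 24.

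The question of an immunodeficient background was addressed by comparing the lines, a contrast the rule did not use. The ratios within each line, however, come from the p21 and p60 levels that chose the members. Their size is therefore largely fixed by the rule and is given as a description. The median ratio of p60 to p21 was 5.73 in immunocompetent libraries (3.29 to 16.5) and 5.06 in athymic libraries (3.29 to 23.8). A ratio of 4 or more was reached in both lines by 47 members, in the immunocompetent line by 55 and in the athymic line by 53. The ratio was higher in the immunocompetent line for 33 members and in the athymic line for 28.

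**Figure D5:**
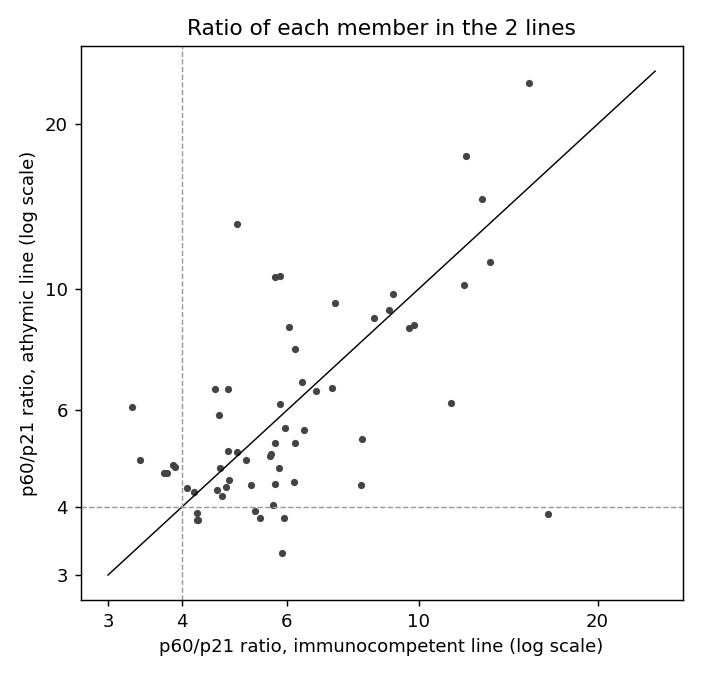
Ratio of p60 to p21 for each of the 61 members in immunocompetent (x axis) and athymic libraries (y axis), both on a log scale and each from 3 libraries per age, with dashed lines at a ratio of 4 and a diagonal of equal ratios. Members lie on both sides of the diagonal, 33 below and 28 above it. All have a ratio over 3 in both lines, which the rule largely fixes.

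At p60, no member passed 0.05 between the lines after Benjamini-Hochberg adjustment over the 15557 genes that edgeR's quasi-likelihood test covered, of which 3, or 0.0193%, were called. At an unadjusted p-value under 0.05 there were 4 members of 61, and 9.4% of all genes tested. Of the 4, 2 were higher in athymic libraries, a direction with 5.53% of all genes. The median log2 difference of athymic from immunocompetent libraries was -0.087 over the members, with 18 higher and 43 lower in athymic libraries, against -0.0034 over all genes tested. This median moved with single libraries: it was -0.23 without library 20, -0.15 without library 22, -0.16 without library 24, -0.0034 without library 23 and 0.0076 without library 21, which turned its sign. The median standard error of a member was 0.193.

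The 4 members under the unadjusted limit were split in direction. They were picked by that p-value, so a separation of their libraries by line adds no support. The gene at 114.478 Mb on chromosome 6 was 0.91 higher in athymic libraries on the log2 scale (standard error 0.283, adjusted p = 0.410 by edgeR). All 3 athymic libraries were above all 3 immunocompetent libraries, but narrowly, with 19.3 CPM in library 22 against 19.04 CPM in library 21. DESeq2, an alternative, gave the same difference with an adjusted p of 0.0226. The chromosome 19 gene at 11.302 Mb was 0.47 higher (standard error 0.162, adjusted p = 0.466 by edgeR).

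Lower in athymic libraries were the gene at chr10:13003011-13004441 by a log2 difference of -0.47 (standard error 0.124, adjusted p = 0.366 by edgeR) and the chromosome 7 gene at 129.950 Mb by -0.29 (standard error 0.0819, adjusted p = 0.373 by edgeR). The gene at 13.003 Mb had 19.3, 24.2 and 24.3 CPM in immunocompetent and 17.2, 17.6 and 14.2 CPM in athymic libraries at p60. The gene at 129.950 Mb had 400, 466 and 409 CPM against 378, 315 and 347 CPM, and DESeq2 gave it an adjusted p of 0.0351. This gene and the chromosome 6 gene at 114.478 Mb were the 2 members DESeq2 called at p60, where it called 111 of 17657 genes (0.629%) in all. That was a larger share of the 61 members than of all genes, but it rests on 2 members, and edgeR called neither. Line and labelled sex cannot be told apart in these differences, and the Y counts of library 22 went against its label.

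At p21, 52 members were counted well enough to test, and none differed between the lines, as none of the 15225 genes did (0% called), with 5 members and 12.7% of genes at an unadjusted p-value under 0.05, of which 1 member and 6.63% of genes were higher in athymic libraries. These 52 are not the whole list, since 9 members failed the filter at p21. Over both ages, no member and no gene of 16069 was called (0%), with 6 members and 11.8% of genes at an unadjusted p-value under 0.05. None of these 6 members was higher in athymic libraries, against 5.75% of genes. The smallest adjusted p-value of a member over both ages was 0.173 by edgeR, for the gene at 129.950 Mb, with a log2 difference of -0.22 (standard error 0.0590). DESeq2 called this member, with an adjusted p of 0.0295, as 1 of 262 genes called among 12883 (2.03%). Over both ages, the share of the 61 members called was thus no higher than that of all genes, unlike at p60.

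The interaction of age and line tested whether the p60 difference was unequal in the lines. No member passed by edgeR, against 1 of 16069 genes (0.00622%), and 8 members and 9.3% of genes had an unadjusted p-value under 0.05, of which 5 members and 5.85% of genes had the larger log2 change in the athymic line. The gene at 13.003 Mb on chromosome 10 had the smallest adjusted p-value of the members, 0.176 by edgeR, with a log2 change that was lower by 0.94 in the athymic line (interaction -0.94, standard error 0.215). Its p21 level was 2.45, 2.54 and 2.17 CPM in immunocompetent and 2.88, 3.53 and 3.59 CPM in athymic libraries, so the order of the lines at p21 was the opposite of that at p60. The chromosome 6 gene at 114.478 Mb had an interaction of 1.61 (standard error 0.483, adjusted p = 0.278 by edgeR), and ENSRNOG00000050869, the member with the largest ratio, had 0.69 (standard error 0.226, adjusted p = 0.327 by edgeR).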

How the data were processed

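The authors deposited raw counts per Ensembl gene for each library, without normalization. The submitters' processing notes name STAR 2.5.2b, featureCounts (Subread 1.5.2), DESeq2 and the build Rnor_6.0. The strand setting and the treatment of reads with several positions are not given in the sources used here, and could change the counts of overlapping or near-identical genes. Poly(A) selection limits the data to polyadenylated RNA.

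CPM was computed from the deposited counts and library totals (13852516 to 16725355). Lines were compared with edgeR 4.0.16 in R 4.3.3, with filterByExpr (minimum count 10, total 15), TMM scaling, the quasi-likelihood test and Benjamini-Hochberg adjustment over all genes at 0.05. Age was a covariate over both ages, and p60 and p21 were also fitted alone. DESeq2 1.42.0 was an alternative. Standard errors came from the log2 difference and its F statistic. Tested on simulated data with 200 genes changed by a log2 difference of 1, the p60 comparison recovered 151 of 200 with 19 false calls among 15557 genes. Beside the 151 recovered, the 19 were a larger share of the p60 calls than the adjusted limit of 0.05 aims at. For the interaction, 108 of 200 were recovered with 5 false calls among 16069 genes. Plots used matplotlib 3.10.9.

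Members and lists were chosen with earlier results of these data known. The planned rule named members with a symbol (largest ratio, highest level, nearest the limit, most and least variable, largest line difference). With 0 of 32883 identifiers matched, fewer members were described, by position, chosen after their values were seen, and 25 gene lists (522 symbols) were not used here.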

Additional observations from a re-analysis of the deposited data

Results flagged for a closer look

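Each member was checked for a library far from the other 5 of its age. In 11 of 122 groups of 6 libraries, the gap between the highest or lowest library and its nearest neighbour as a share of the range exceeded Dixon's critical value. For normal values in independent groups, chance flags about 1 in 20, or 6.1. The rule used these levels, members moved together between libraries and some p21 levels rest on few counts. The 11 and 6.1 are therefore not compared as a test.

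At p60, 3 members stood apart. Library 21 had 159 CPM of the gene at chr3:11414186-11417546, where the other 5 libraries had 7.87 to 15.5 CPM. It also had 169 CPM of the gene at chr18:74461055-74485139, where the others had 109 to 129 CPM. Library 19 had 6.50 CPM of the gene at chr7:142322172-142352382, where the lowest library had 2.98 CPM.

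At p21, 8 members stood apart, most of them at a few CPM. Library 3 had 0.578 CPM of the gene at chr6:127941526-128080889 and 0.722 CPM of the gene at chr5:139100898-139105792. Library 2 had 2.98 CPM of the chromosome 7 gene that starts at 122.457 Mb and 4.95 CPM of the chromosome 1 gene that starts at 199.495 Mb. In library 6, the chromosome 8 gene at 22.035 Mb had 3.59 CPM and the chromosome 16 gene at 19.939 Mb had 3.53 CPM. Library 4 had 0.669 CPM of the chromosome 4 gene at 68.808 Mb, from 10 counts against 1 to 2 in the other libraries. The chromosome 9 gene at 27.368 Mb was low in library 6, at 73.5 CPM, where the other 5 had 95.5 to 104 CPM.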

How the results depend on the processing

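A ratio of 3 or more gave 158 genes and a ratio of 5 or more gave 36. The other settings of the rule kept the count of 61 within 1.5 times: 47 with TMM scaling, 44 with 1 CPM and 91 with 0.1 CPM added, 53 with a p60 mean of 5 CPM, 73 in the immunocompetent and 90 in the athymic libraries alone, 55 without libraries 4, 19 and 24, and 75 without libraries 20 and 23, the last chosen after seeing the data. Leaving out 1 library gave 56 to 70 genes, and at most 5 members were lost. Between the lines, DESeq2 called 2 members at p60 (111 of 17657 genes, 0.629%) and 1 over both ages (262 of 12883 genes, 2.03%), and every other setting called 0 members. Leaving out 1 library gave 0 members in each comparison. The p60 difference of the gene at chr3:11414186-11417546, -2.08 (adjusted p = 0.578 by edgeR), reversed to 0.48 (adjusted p = 0.620 by edgeR) without library 21, and leaving out each library gave -2.60 to 0.48. The cause of these changes was not tested. Counts over all genes ranged from 0 to 179 at p60, 0 to 282 at p21, 0 to 262 over both ages and 0 to 140 for the interaction. No paired analysis was possible because no number is shared between libraries. Members under 1 CPM at p21 rest on few counts, so the size of their ratios is imprecise.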
